A study of Rattus norvegicus with 3 samples.

Results

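Transcripts of zinc, iron and copper handling genes were examined in the rat medullary thick ascending limb (mTAL), a salt-reabsorbing tubule segment of the kidney's outer medulla. The genes were chosen by symbol, with no threshold on their signal, but with earlier results of these data known. They comprise the zinc transporters of the Slc30 and Slc39 families, the copper transporters of the Slc31 family, the iron transporter Slc11a2, the reductases Steap1 to Steap4, and the single genes Slc40a1, Tfrc, Hamp, Cp, Heph, Atp7a, Atp7b, Atox1, Ireb2 and Mt3. In all, 38 such genes were measured, of 14217 genes on the array. The genes Tf, Fth1, Ftl1, Slc11a1, Slc30a8, Slc39a9 and Slc39a12 were not analysed here. The 38 genes had 60 probe sets between them. Where a gene had several, the one with the highest mean stood for it, so that the signal of such a gene is the upper end of what its probe sets gave.

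The study profiled 3 samples of 1 group on Affymetrix arrays and held no other tissue, genotype or treatment. The donors were male rats of the Sprague-Dawley strain, aged 7 to 8 weeks. Every rat had received furosemide (1 mg), a loop diuretic that acts on this segment, and heparin (250 u) by the intraperitoneal route 30 min before death, and the segment was enriched from collagenase-digested outer medulla on a 33.3% Percoll gradient. The labels do not say whether the samples were separate rats or pools, so that p-values reflect the spread among the 3 samples alone, which could be technical. Levels are probe set signals on the linear scale of the deposited table, given for replicates 1, 2 and 3 in that order or as mean ± SD (n = 3 throughout). A gene was called detected when its log2 signal exceeded the array's cutoff, set at the 95th percentile over 69 genes typical of other tissues such as brain, pituitary and muscle, by limma with a one-sided adjusted p under 0.05. The cutoff lay at a signal of 415, 290 and 355 on the 3 arrays, between the pituitary hormone gene Lhb (444, 302 and 361) and the insulin gene Ins1 (375, 272 and 345). Of the 69 genes, 3 were themselves called by this test: Cela1, Krt10 and Mbp, at 2.35, 1.79 and 1.00 log2 units above the cutoff. A call therefore means a signal above most of these genes. Probe sets hybridise with unequal strength, so an order of signals between genes is not an order of transcript abundance, and each signal is set against the cutoff and against its own value on the other arrays.

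Metals enter and leave the cytosol through families of transporters with opposite directions. Proteins of the Slc30 family (ZnT) carry zinc out of the cytosol, across the plasma membrane or into organelles, and those of the Slc39 family (ZIP) carry it in. Iron bound to transferrin is taken up with the transferrin receptor, is reduced and leaves the endosome through Slc11a2 (DMT1), and is exported by ferroportin. Copper enters through Slc31a1 (CTR1), is handed on by chaperones, and is pumped into the secretory pathway by the ATPases Atp7a and Atp7b. Excess zinc and copper are bound by metallothioneins, whose genes are switched on by the zinc-sensing factor Mtf1 through a short promoter sequence, the metal response element. The loop of Henle is known as a site of iron reabsorption in the rat kidney.

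The promoters of the metallothionein genes and of Slc30a1, the zinc exporter of the plasma membrane, carry matches to this element. Those of Mt1, Mt2A and Slc30a1 are shown because these genes are known to respond to cell zinc, and that of Mt3 because it is the metallothionein among the genes described. The sequences are those of RefSeq on the GRCr8 build and cover the 250 bases upstream of the start site, 5′ to 3′ on the strand of the gene. Capitals mark each match to TGCACNC or TGCGCNC, where N is any base, on either strand, and overlapping matches run together.
Mt2A: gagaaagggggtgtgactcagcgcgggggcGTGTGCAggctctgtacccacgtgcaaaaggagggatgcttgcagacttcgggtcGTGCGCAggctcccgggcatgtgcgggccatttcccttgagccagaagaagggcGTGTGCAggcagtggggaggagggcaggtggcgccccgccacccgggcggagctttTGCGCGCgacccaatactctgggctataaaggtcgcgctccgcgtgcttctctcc
Mt1: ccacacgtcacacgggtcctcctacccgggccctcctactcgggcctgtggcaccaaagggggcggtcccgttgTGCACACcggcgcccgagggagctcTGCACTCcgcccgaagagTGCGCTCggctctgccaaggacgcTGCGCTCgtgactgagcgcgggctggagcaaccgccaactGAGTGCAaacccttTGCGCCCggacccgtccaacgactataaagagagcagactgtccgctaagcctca
Mt3: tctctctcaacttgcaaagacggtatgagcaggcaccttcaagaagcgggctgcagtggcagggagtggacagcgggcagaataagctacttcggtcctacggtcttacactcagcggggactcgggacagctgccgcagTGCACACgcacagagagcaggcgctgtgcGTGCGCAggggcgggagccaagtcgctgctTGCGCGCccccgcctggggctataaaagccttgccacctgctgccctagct
Slc30a1: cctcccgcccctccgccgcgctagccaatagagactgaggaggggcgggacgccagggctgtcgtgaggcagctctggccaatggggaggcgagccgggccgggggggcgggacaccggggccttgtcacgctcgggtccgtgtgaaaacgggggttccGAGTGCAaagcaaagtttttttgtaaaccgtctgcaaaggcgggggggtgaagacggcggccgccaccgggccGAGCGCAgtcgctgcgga
They lie at chr19:10838709-10838958 (Mt2A), chr19:10832976-10833225 (Mt1) and chr19:10856081-10856330 (Mt3), all on the minus strand, and at chr13:106021769-106022018 on the plus strand (Slc30a1). The promoter of Mt1 held 6 matches, that of Mt2A 4, that of Mt3 3 and that of Slc30a1 2. Of the 34 metal handling genes with a promoter sequence, 14 (41.2%) held at least 1 match and 10 (29.4%) at least 2. Among 11733 measured genes with a promoter sequence, 30.9% held at least 1 match and 8.48% at least 2. Among the detected metal handling genes, 9 of 24 held a match, and among those not detected 5 of 10. These counts describe letters in a window and do not show binding.

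Of the 38 metal handling genes, 26 (68.4%) were detected, against 7609 of 14217 (53.5%) of all genes. The genes were chosen with earlier results of these data known, so that this difference is a description only. All 26 lay above the cutoff on all 3 arrays, as did 56.2% of all genes; 7 lay below it on all 3 and 5 were mixed. The median of the 38 genes stood 0.28 ± 0.16 log2 units above the median gene of the array. Among the 270 other measured genes with Slc symbols, 116 (43%) were detected. The groups by role had detected shares of 6 of 9 zinc exporters, 9 of 12 zinc importers, 6 of 10 genes of iron uptake and export and 4 of 5 copper genes, and Ireb2 was detected while Mt3 was not. The share of detected members depended on the cutoff, with 30 of 38 when it was set at the 90th percentile (63.6% of all genes), 11 of 38 at the 99th (26.2%) and 34 of 38 at the signal of TrpnX, a control transcript not added to samples (78.3%).

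**Figure D1:**
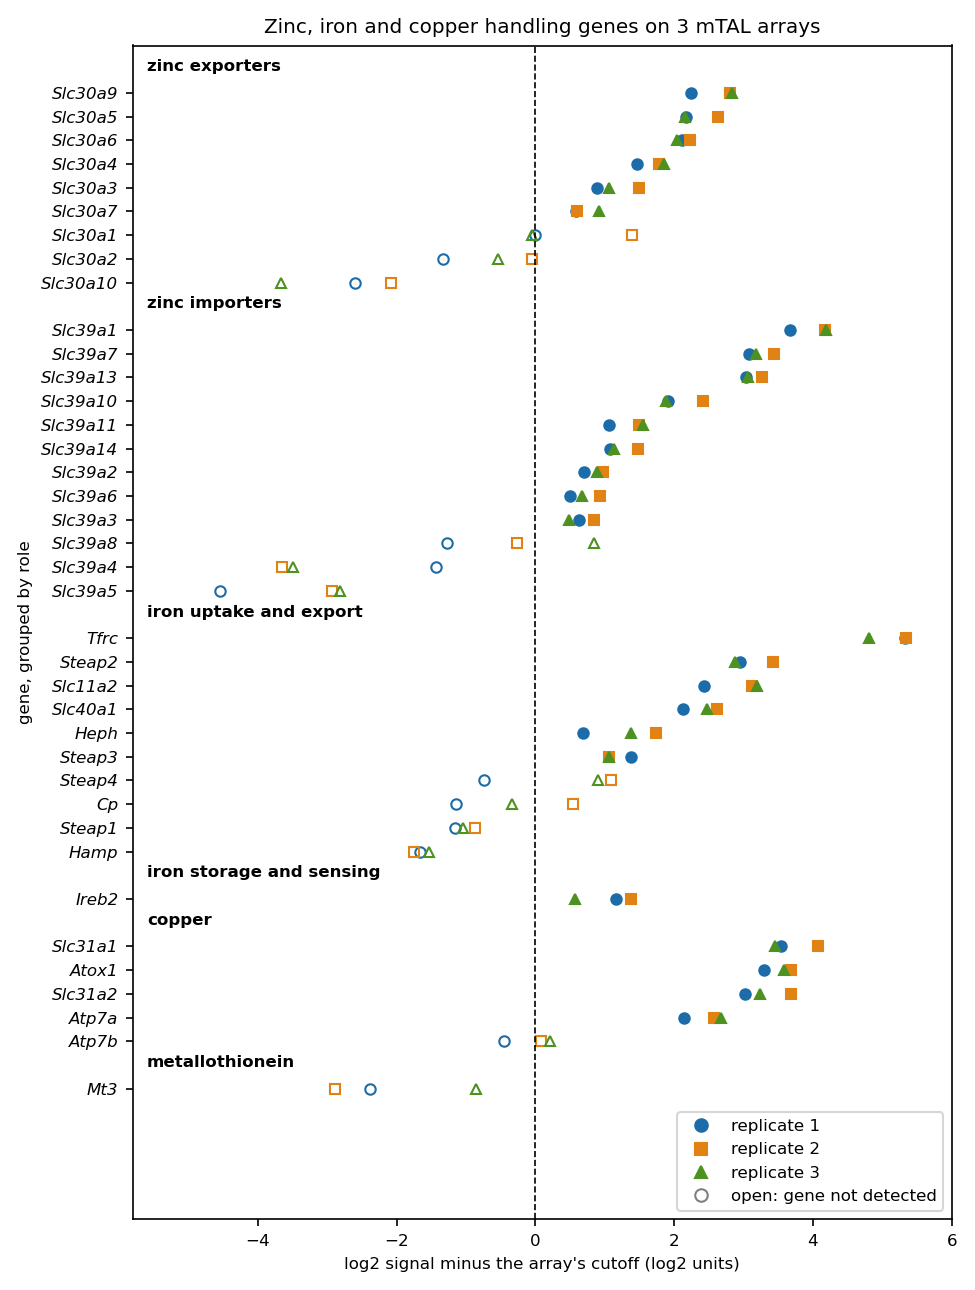
Each row is a gene and each symbol an array (blue circles replicate 1, orange squares replicate 2, green triangles replicate 3). The x axis gives log2 signal minus that array's cutoff, with the dashed line at the cutoff, and open symbols mark genes not detected. The 26 detected genes lie right of the line on every array, with Tfrc farthest from it at a mean of 5.16 log2 units.

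The 6 zinc exporters detected in the mTAL were mainly those of organelles, as are most of the 9 measured. Slc30a5, Slc30a6 and Slc30a7 load zinc into the early secretory pathway, the first pair as a heterodimer. Slc30a5 had signals of 1866, 1789 and 1580 and stood 2.32 log2 units above the cutoff (adjusted p = 0.000314). Slc30a6 had signals of 1793, 1352 and 1456, 2.12 units above it (adjusted p = 0.000288). Both were well above the cutoff on each array. Slc30a7 had 620, 438 and 670, only 0.70 units above it (adjusted p = 0.0191), and its call was lost without replicate 3 (adjusted p = 0.286) and with the muscle myosin gene Myh1 among the other-tissue genes (adjusted p = 0.483). Slc30a9, which exports zinc from mitochondria, had signals of 1966, 2032 and 2534 (adjusted p = 0.000255). Slc30a4, of the endosomal and lysosomal membranes, had 1141, 992 and 1277 (adjusted p = 0.000776). Slc30a3, known as the transporter of synaptic vesicles, had 765, 819 and 737 and was detected as well, 1.15 units above the cutoff (adjusted p = 0.00478). Each of these exporters lay above the cutoff on all arrays. On the mean over all probe sets, Slc30a4 and Slc30a9 were not called (limma adjusted p = 0.293 and 0.224).

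Slc30a1, in contrast, was not called. Its signals were 412, 758 and 344, or 505 ± 222, and the mean stood 0.44 log2 units above the cutoff (adjusted p = 0.242). It was above the cutoff on replicate 2 alone, and just under it on the others. With the cutoff at the 90th percentile it was called (adjusted p = 0.00118). Slc30a2, a vesicular transporter known from the mammary gland, had signals of 165, 280 and 244, and Slc30a10, a manganese exporter, had 68.2, 68.4 and 27.9 (adjusted p = 1 for both). Both genes lay below the cutoff on every array.

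Zinc importers were detected for the plasma membrane and for the organelles. Slc39a1, an importer of the plasma membrane, had signals of 5294, 5223 and 6472 and stood 4.01 log2 units above the cutoff (adjusted p = 8.23e-05). Slc39a7, which releases zinc from the endoplasmic reticulum, had 3507, 3131 and 3200, 3.23 units above it. Slc39a13, of the Golgi and intracellular vesicles, had 3395, 2797 and 2975, 3.12 units above it (adjusted p = 0.000104 for both). These 3 genes were also detected with the cutoff at the 99th percentile, where the other zinc importers were not. Slc39a10, a plasma membrane importer, had signals of 1563, 1549 and 1307 (adjusted p = 0.000505), and Slc39a11 had 863, 815 and 1043 (adjusted p = 0.00211). Slc39a14, which also carries iron not bound to transferrin, had 871, 808 and 779 (adjusted p = 0.00269). All arrays lay above the cutoff for each of these genes.

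The remaining detected importers were close to the cutoff. The plasma membrane importer Slc39a2 had signals of 677, 568 and 657, its relative Slc39a3 had 644, 522 and 498, and Slc39a6, which pairs with Slc39a10, had 588, 550 and 567. They stood 0.86, 0.66 and 0.70 log2 units above the cutoff, with adjusted p of 0.0083, 0.0228 and 0.0197. Without replicate 3 none of these 3 genes was called, and without replicate 2 Slc39a3 and Slc39a6 were not. With Myh1 among the other-tissue genes all 3 calls were lost.

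Among the zinc importers, 3 genes were not detected. Slc39a4, the importer of the gut whose loss causes acrodermatitis enteropathica in humans, had signals of 154, 23.0 and 31.5, and its relative Slc39a5 had 17.8, 38.1 and 50.1 (adjusted p = 1 for both). Slc39a4 was the only one of the 38 genes whose spread over arrays, 2.83 log2 units, was above the 90th percentile of all genes (2.37), and its signals were far below the cutoff. Slc39a8, which also carries manganese and cadmium, had signals of 171, 241 and 638. It was above the cutoff on replicate 3 and below it on the others, at a mean of 350 ± 252 (adjusted p = 1).

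Iron uptake genes were detected from the transferrin receptor to the endosomal transporter. Tfrc, the receptor for iron-loaded transferrin, had signals of 16639, 11788 and 9930, or 12786 ± 3464, and stood 5.16 log2 units above the cutoff (adjusted p = 6.9e-05), so that every array was far above background. Slc11a2, which moves ferrous iron out of the endosome and across the apical membrane, had signals of 2228, 2524 and 3256, 2.92 units above the cutoff (adjusted p = 0.000245). Steap2, a reductase that makes iron and copper fit for transport, had 3200, 3100 and 2615 (adjusted p = 0.000143). Its relative Steap3, the reductase of endosomes in red cell precursors, had 1075, 606 and 737 (adjusted p = 0.00295). Steap4 had 249, 617 and 664 and was not called (adjusted p = 0.32). It was below the cutoff on replicate 1 and above it on the others, and without replicate 1 it was called (adjusted p = 0.0157). Steap1 had 185, 158 and 172, below the cutoff on each array.

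The iron exporter and one of its oxidases were detected too. Slc40a1, ferroportin, the only known iron exporter of mammalian cells, had signals of 1818, 1771 and 1970, 2.41 log2 units above the cutoff (adjusted p = 0.000263). On the probe set that stood for the gene, its spread over the arrays, 0.13 log2 units, was the smallest of the 38 genes. The other probe sets of Slc40a1 varied more. After centring they differed by -0.49 and -1.70 log2 units on replicate 3 against replicate 1. Hephaestin, Heph, a membrane ferroxidase that works with ferroportin in the gut, had 665, 965 and 920 (adjusted p = 0.00745). The other ferroxidase, ceruloplasmin (Cp), had 188, 422 and 281, above the cutoff on replicate 2 alone, and was not called (adjusted p = 1). Hamp, the gene of the hormone hepcidin, which degrades ferroportin and is made mainly in liver, had 131, 85.9 and 123, below the cutoff on all arrays. Ireb2, the iron regulatory protein that binds iron-responsive elements in messenger RNAs, had 927, 755 and 528, 1.04 units above the cutoff (adjusted p = 0.00973). With Myh1 among the other-tissue genes the call of Ireb2 was lost (adjusted p = 0.0719).

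Copper genes were detected from entry to pump, the pump on 1 of the 3 probe sets of Atp7a. The copper importer Slc31a1 had signals of 4816, 4874 and 3883, 3.69 log2 units above the cutoff (adjusted p = 0.000103), and its relative Slc31a2, of endosomes and lysosomes, had 3353, 3711 and 3329 (adjusted p = 0.000133). Atox1, the chaperone that carries copper to the ATPases, had 4081, 3739 and 4254 (adjusted p = 8.98e-05). Their spreads over the arrays were 0.43, 0.19 and 0.22 log2 units, against a median of 0.34 for all genes with a mean above the cutoff. Atp7a, the pump mutated in Menkes disease, had 1830, 1721 and 2262 (adjusted p = 0.00027). Atp7b, the pump mutated in Wilson disease, had 303, 306 and 411, with a mean log2 difference from the cutoff of -0.05 (adjusted p = 0.962), with replicate 1 below and the others above it. The 4 detected copper genes were also called at the 99th percentile, Atp7a only narrowly (adjusted p = 0.047), and Atp7b was called at the 90th (adjusted p = 0.0135). Mt3, a metallothionein known from brain, had signals of 79.8, 39.2 and 195, below the cutoff on all arrays.

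For 23 of the 38 genes a single probe set was measured, and for 15 there were several, 37 in all. The probe sets of a gene often disagreed. Beside the 15 that stood for their genes there were 22 others, of which 8 were detected in a fit over all 20826 single-gene probe sets, where 44.5% were detected. The others lay a median of 2.16 log2 units below the probe set that stood for the gene, with a range from 0.04 to 5.86. In 5 genes every probe set was detected (Tfrc, Slc11a2, Slc31a1, Slc31a2 and Slc39a3), in 7 only some were, and in 3 none was (Atp7b, Cp and Slc30a2). The 4 probe sets of Slc31a1 had mean signals of 4525, 1463, 1302 and 997, all detected.

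The 3 probe sets of Atp7a had signals of 1938 ± 286, 141 ± 81.7 and 44.6 ± 54.5. As an alternative, every gene was averaged over its probe sets, and the cutoff was computed anew from the averaged other-tissue genes. That cutoff was lower: Heph, with 1 probe set, stood 1.61 log2 units above it, against 1.26 above the main one. Averaged over its probe sets, Atp7a was under this lower cutoff, at a log2 difference of -0.60. Slc39a6, with mean signals of 568, 128 and 58.4, was likewise under it, at -0.92. Slc30a4, Slc30a9 and Slc39a14 stayed above this lower cutoff at 0.22, 0.30 and 0.11 units but were no longer called. On this measure 21 of 38 metal handling genes were detected, against 7244 of 14217 of all genes. The calls of Atp7a, Slc39a6, Slc30a4, Slc30a9 and Slc39a14 therefore rest on 1 probe set of several, and so does that of Steap2. The other probe set of Steap2 had a mean signal of 193 and was not detected, although the gene was called on the average. Slc40a1 had a further detected probe set (mean 1343) and another below the cutoff (mean 224), and it was called on the average too.

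**Figure D2:**
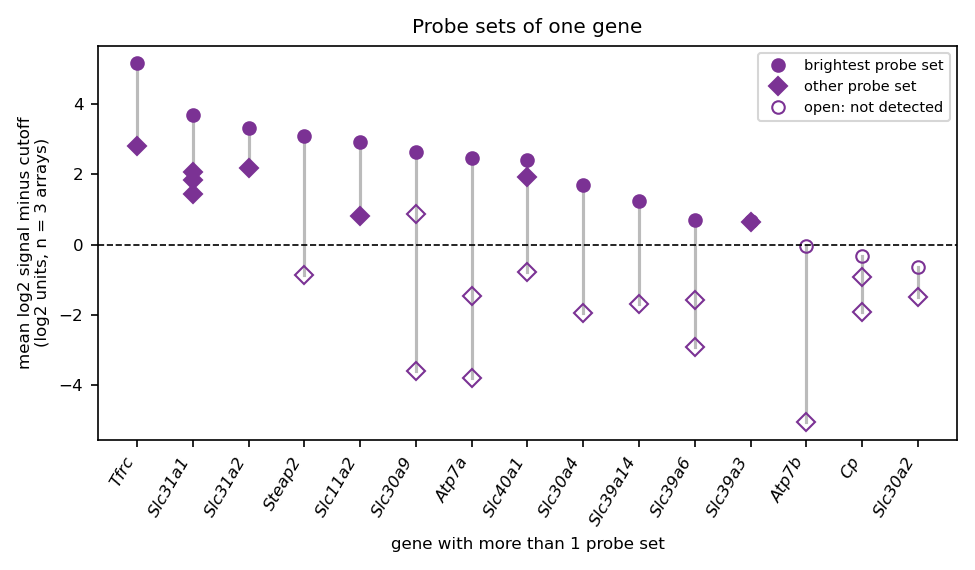
Each column is a gene with several probe sets. Symbols give the mean log2 signal of a probe set minus the cutoff over 3 arrays (circles for the probe set that stood for the gene, diamonds for others, open where not detected). Tfrc and the copper transporter Slc31a1 have all their probe sets above the dashed cutoff line, and Atp7a has 1 above and 2 below.

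Signals of markers of other kidney cells differed between the arrays. All 14 TAL markers were detected, with Umod at 57036 ± 8031 and Slc12a1 at 39427 ± 2562. Proximal tubule markers, of which 4 of 21 were detected, had summed signals of 8306, 27826 and 83581 on replicates 1, 2 and 3, and 19 of 21 were highest on replicate 3, with Kap (169, 7164 and 26093) and Hao2 (3934, 7095 and 12142) the highest of the list. Thin limb markers (4 of 6 detected, Cryab and Aqp1 highest) summed to 26995, 71526 and 40779, and 5 of 6 were highest on replicate 2. Endothelial markers (8 of 10 detected, Esam and Plvap highest) summed to 16099, 27702 and 24859, and 8 of 10 were highest there. Principal cell markers (4 of 8 detected, Aqp2 and Hsd11b2 highest) summed to 3855, 8716 and 16093, and intercalated cell markers (1 of 5, Atp6v1g3 and Slc4a1 highest) to 1093, 2758 and 3032. Leukocyte markers (3 of 15, Lyz2 and Fcer1g highest) summed to 3112, 5515 and 5032, and red blood cell markers (1 of 4, Hbb and Alas2 highest) to 1481, 1562 and 6229. No listed marker had a signal of 0. In such bulk samples, fewer cells of a type and less RNA per cell cannot be told apart.

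The spread of the metal handling genes between arrays was set beside that of genes at large. The 28 genes with a mean above the cutoff had a median spread, from the lowest to the highest array after centring on the median gene, of 0.37 log2 units, against 0.34 for the 8627 genes of the array with a mean above it. A spread over 1 log2 unit was found in 2 of the 28 (7.14%), Slc30a1 and Steap4, against 5.2% of those 8627 genes. Of the 28, 17 were highest on replicate 1 and 7 on replicate 3, against 53.1% and 22.3% of the 8627. These shares were near the background and are no result about the metal handling genes.

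The genes with the largest differences did not share an order of arrays. Slc39a4 spread over 2.83 log2 units and was highest on replicate 1. Mt3 spread over 2.29 and was lowest on replicate 2, and Slc30a10 over 1.41 and was lowest on replicate 3. These genes lay below the cutoff on every array. Some others, such as Slc39a5 (1.38), were lowest on replicate 1, which had the lowest sum of each marker list of other kidney cells. Slc39a8 was 1.78 log2 units higher on replicate 3 than on replicate 1, and the median of the 21 proximal tubule markers was 3.59 higher. Steap4 was 1.30 higher on replicate 3 than on replicate 1. Slc30a1 and Cp were highest on replicate 2, as were 5 of 6 thin limb and 8 of 10 endothelial markers, although Slc30a1 was lowest on replicate 3. Another probe set of Cp (93.0, 179 and 370) was highest on replicate 3, and a further one (66.2, 187 and 63.7) on replicate 2. The part of other cells in these values was not tested. The count of detected metal handling genes was 27 of 38 without replicate 1, 24 without replicate 2 and 22 without replicate 3. Of all 14217 genes, 7732, 7139 and 6669 were detected in the same settings.

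Tfrc and Ireb2 had the opposite order to Slc39a8, with the highest signal on replicate 1 and the lowest on replicate 3. This order was not particular to them. Centred on the median gene, Slc30a5, Slc30a10, Slc31a1, Slc39a3, Slc39a10, Slc39a14 and Steap2 had it too. Of all genes with a mean above the cutoff, 53.1% were highest on replicate 1. After centring, Tfrc was lower on replicate 3 than on replicate 1 by a difference of -0.86 log2 units on the probe set that stood for it and -1.33 on its other one, whose signals were 4069, 2097 and 1756. Both probe sets of the gene thus gave the same order of arrays. Ireb2 differed by -0.93 between the same arrays. TAL markers, of which 10 of 14 were highest on replicate 1, differed by a median of -0.26. Control signal from the 3′ end of Actb over that from its 5′ end, which is higher where RNA is less intact, was 1.48, 1.18 and 1.95 log2 units on replicates 1, 2 and 3. For Gapdh it was 0.51, 0.43 and 0.60, so that both were highest on replicate 3. The part of RNA quality in the differences between arrays was not tested. Each of these differences is between single arrays, so that none of them has a replicate test.

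**Figure D3:**
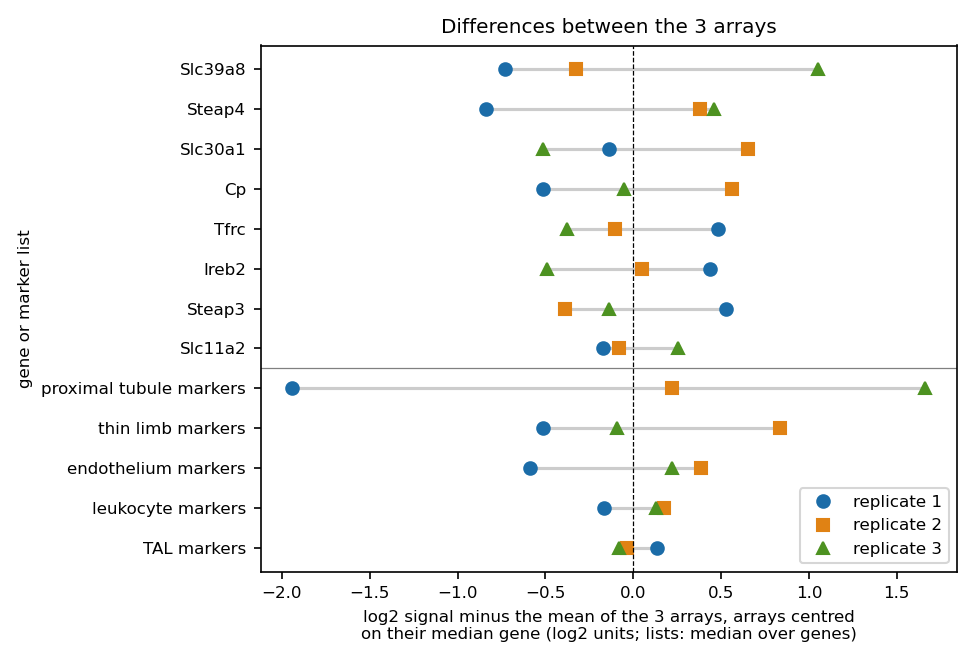
Rows give 8 metal handling genes (above the grey line) and 5 marker lists (below it). The genes Slc39a4, Mt3, Slc30a10 and Slc39a5 are not shown. The x axis is log2 signal minus the mean over the arrays after centring on the median gene, and a list is shown by the median over its genes. Slc39a8 and the proximal tubule markers are highest on replicate 3, and Tfrc and Ireb2 on replicate 1.

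Further genes of the same pathways were detected in 42 of 58 cases (72.4%), against 53.5% of all genes. The lists of these genes too were chosen with earlier results known. Mt2A, a metallothionein that buffers zinc and copper, had signals of 25842, 42537 and 36648, 6.62 log2 units above the cutoff (adjusted p = 7.02e-05). Mtf1, the zinc-sensing transcription factor, had 1524, 1462 and 1583 (adjusted p = 0.000378). Mt1 had 423, 376 and 500, above the cutoff on all arrays by a mean of 0.30 units, but was not called (adjusted p = 0.186). Metallothionein genes are close copies of each other, so that the split of signal between Mt1 and Mt2A is uncertain. Of the 4 genes whose promoters are printed above, Mt2A alone was called.

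Of 12 other genes of iron regulation 6 (50%) were detected, against 53.5% of all genes, with the highest signals from the RNA-binding iron chaperone genes Pcbp2 (13869 ± 410) and Pcbp1 (10500 ± 816) and the ferritin receptor Ncoa4 (11661 ± 724), which delivers ferritin to lysosomes. Those not detected were Hfe, Hjv, Tfr2 and Bmp6, genes of the sensing of body iron in liver, the reductase Cybrd1 and Sfxn1. Of 15 genes of iron-sulfur cluster assembly and mitochondrial iron 13 (86.7%) were detected, with the highest signals from the mitochondrial glutathione importer Slc25a39 (14418 ± 1019), the cluster carrier Glrx5 (13892 ± 1307) and the chaperone Hspa9 (13089 ± 1250), and Slc25a37 and Isca2 were not.

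Of the heme genes 68.4% were detected, and of the copper genes beyond the transporters 88.9%, against 53.5% of all genes. Of 19 heme genes 13 were detected, with the highest signals from the synthesis enzymes Urod (5605 ± 334), Alas1 (5194 ± 929) and Cpox (3384 ± 795), where Alas1 is the housekeeping form of the first enzyme of the pathway. Its erythroid form Alas2 had signals of 142, 117 and 253 and was not detected, nor were Uros, the heme and folate carrier Slc46a1, Flvcr2, and Hpx and Hp, the genes of plasma proteins that bind heme and hemoglobin. Of 9 other copper genes 8 were detected, with the highest signals from the mitochondrial phosphate and copper carrier Slc25a3 (41937 ± 3312), superoxide dismutase Sod1 (17581 ± 921) and Cox17 (6918 ± 1391), which brings copper to cytochrome oxidase. Lox, the copper enzyme of the extracellular matrix, was not detected (107, 319 and 152).

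**Figure D4:**
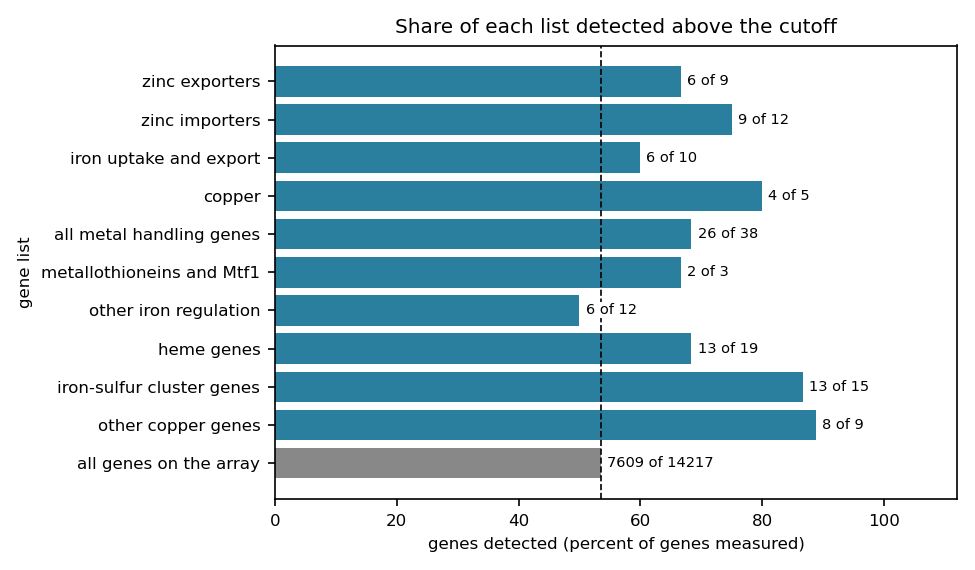
Bars give the percent of the measured genes of each list that were detected, with the counts beside them. The dashed line marks the share of all genes, 53.5%. The iron-sulfur cluster genes (13 of 15) and the other copper genes (8 of 9) have the longest bars, and the list of other iron regulation genes (6 of 12) lies below the line.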

How the data were processed

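Probe set signals of 3 mTAL samples were analysed. The deposited table holds the authors' linear intensity of each probe set. The summary method and scaling are not given in the sources used here, and the arrays had a common trimmed mean. All values were positive, and log2 was used with no pseudocount or further scaling. Of 31099 probe sets, 57 were controls, 20826 had 1 gene in the platform annotation, 436 several and 9780 none. Identifiers of all 38 genes described matched RefSeq with an unchanged symbol. Detection was tested with limma 3.58.1 in R 4.3.3 (lmFit and eBayes on log2 signal minus cutoff, one-sided). Benjamini-Hochberg adjustment was over all 14217 genes. The test was also run on simulated data with independent errors and 1 fixed cutoff common to the 3 arrays. Cutoffs estimated for each array were not part of that check. Cutoff genes, pathway lists and members were chosen with earlier results of these data known. In particular Myh1, whose high signal had put its annotation in question, was left out of the cutoff genes. Every member is named. Of other pathway lists the 3 detected genes with the highest signal and all zinc genes are named, of marker lists the 2 highest, and the genes of these lists that were not detected, in addition to that rule. Array number limits the precision.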

Additional observations from a re-analysis of the deposited data

How the results depend on the processing

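Quantile normalization, a common 75th percentile and a pseudocount of 16 changed none of the 38 calls, and a common rescaling cannot, since each array has its own cutoff. The level of the cutoff changed many calls. Raising it to the 99th percentile left 3727 of all genes, 11 metal handling genes, 1 zinc exporter, 3 zinc importers, 3 genes of iron uptake and export and 0 of 1 iron storage and sensing genes (Ireb2, adjusted p = 1) detected. Of the genes called at the 95th percentile, Heph (-0.70), Ireb2 (-0.93), Slc30a3 (-0.82), Slc30a4 (-0.27), Slc30a7 (-1.27), Slc39a11 (-0.60), Slc39a14 (-0.74), Slc39a2 (-1.11), Slc39a3 (-1.31), Slc39a6 (-1.27) and Steap3 (-0.80) then had a mean log2 signal below the cutoff. At the TrpnX cutoff 10 of 10 genes of iron uptake and export were detected. With Myh1 among the other-tissue genes 21 metal handling genes and 0 of 1 iron storage and sensing genes were, against 6862 of all 14217 genes. The mean over all probe sets, with the cutoff computed anew from such means, put Atp7a (-0.60) and Slc39a6 (-0.92) below the cutoff. The list level was then 0.49, measured from a median gene that was itself averaged over probe sets. This is not a rise in the signals of the metal handling genes. Leaving out 1 replicate gave 22 to 27 detected metal handling genes and 6669 to 7732 of all genes. Of the 26 calls, 9 held under every alternative tried (Tfrc, Steap2, Slc11a2, Slc39a1, Slc39a7, Slc39a13, Slc31a1, Slc31a2 and Atox1). The dim-gene filter kept every call among the 34 genes left. The cause of these changes was not tested beyond the construction of each alternative. No paired analysis was possible because there is 1 group.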
